A study of Mus musculus with 9 samples.

Results

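The genes described here are the core of the transforming growth factor beta (TGF-beta) pathway, namely the ligand gene Tgfb1, the receptor genes Tgfbr1 and Tgfbr2, the signal carriers Smad2, Smad3 and Smad4, the inhibitor Smad7 and the corepressors Ski and Skil. They were chosen by gene symbol and are 9 of the 56691 genes in the deposited table. RNA was sequenced from RAW264.7, an established mouse macrophage line that turns into osteoclast-like cells under RANKL, the cytokine that drives osteoclast formation. The 3 groups of 3 libraries were an untreated control, RANKL, and RANKL + UD, in which uridine (UD), a pyrimidine nucleoside, was given together with RANKL, and all were collected after 3 days of culture. All groups are the same line with no genetic change named, so they model macrophages and osteoclast-like cells in culture and hold no bone matrix or osteoblasts. The dose of UD in these libraries is not given in the sources used here. The submitters call the libraries of a group biological replicates. As all are cultures of the same line, the p-values below measure the spread between these cultures, not between animals or lines.

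TGF-beta is secreted in a latent form, is stored in bone matrix, and is released and activated during resorption. Active ligand binds the type II receptor TGFBR2, which recruits and phosphorylates the type I receptor TGFBR1, and TGFBR1 in turn phosphorylates SMAD2 and SMAD3, which join SMAD4 and act on genes in the nucleus. SMAD7 blocks the receptor, and SKI and SKIL (SnoN) hold SMAD complexes in a repressed state. In osteoclast precursors, TGF-beta is known to promote RANKL-driven differentiation.

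Levels are given as FPKM, the reads on a gene scaled by exonic length and by the total of the library, so that genes of different length can be compared. Totals per library were 15951800 to 19746862 reads (median 19182637). Fold changes and p-values come from edgeR's quasi-likelihood test on the deposited counts with Benjamini-Hochberg adjustment over 11995 genes, those that reached 1 FPKM in 3 or more libraries, and a gene is called higher or lower at an adjusted p under 0.05. Of the 9 genes, 8 entered this test and Smad7 did not. The TMM scaling of that test had factors of 0.959 to 0.963 in the RANKL group and 1.01 to 1.03 elsewhere, so RANKL against control sits slightly above, and RANKL + UD against RANKL slightly below, the ratio of the FPKM values.

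The RANKL libraries carried markers of osteoclasts. The summed FPKM of 9 osteoclast markers (Acp5, Ctsk, Mmp9, Oscar, Atp6v0d2, Dcstamp, Ocstamp, Calcr and Itgb3) was 46.9 to 50.1 in control, 2640.6 to 2843.8 with RANKL and 1666.2 to 1702.9 with RANKL + UD. Ctsk made up most of the sum in the groups that received RANKL (mean FPKM 1491.1 with RANKL and 869.3 with RANKL + UD). Of the 9, 8 had a mean of 1 FPKM or more with RANKL and 7 with RANKL + UD. Calcr stayed low, at 0.323 and 0.0567. The summed FPKM of 8 macrophage markers was 9372.6 to 9964.7, 2496.0 to 2742.5 and 2177.5 to 2311.3 in the same order. Most of that sum was Lyz2 (mean FPKM 7999.7 in control and 1431.0 with RANKL). Cd68 went the other way, from 549.1 to 782.0 with RANKL (edgeR adjusted p = 1.07e-08), and Adgre1, which fell with RANKL, was higher by 0.22 on the log2 scale with RANKL + UD than with RANKL (edgeR adjusted p = 0.0142). Of 8 mesenchymal and 10 lymphoid, epithelial and endothelial markers, 0 had a mean of 1 FPKM or more in any group, and their summed FPKM was at most 1.21 and 0.43. Col3a1, Sp7, Cd3e, Ms4a1, Ncr1, Krt18 and Cdh1 were at 3 counts or fewer in all libraries. The osteoclast and macrophage lists therefore moved with the groups, and their part in the results on the pathway genes was not tested. In such bulk RNA, fewer cells of a type and less RNA per cell cannot be told apart.

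The receptor pair moved in opposite directions under RANKL. Tgfbr1 was 3.33 times its control level with RANKL, while Tgfbr2 fell, and with UD added Tgfbr1 stood between its RANKL and control levels. The start regions of both genes and of Smad3, the SMAD gene with the largest fall, are shown so that the letters can be read beside these changes. They are RefSeq sequences of GRCm38.p6, from 250 bases before to 50 bases after the annotated start, printed 5′ to 3′ on the gene's strand, with capitals for matches to any of 5 short motifs. Start regions of 5 of the 9 genes (Tgfb1, Tgfbr1, Tgfbr2, Smad3 and Ski) were searched for these motifs. Those of Smad2, Smad4, Smad7 and Skil were not searched.

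Tgfbr1, chr4:47352972-47353271, plus strand: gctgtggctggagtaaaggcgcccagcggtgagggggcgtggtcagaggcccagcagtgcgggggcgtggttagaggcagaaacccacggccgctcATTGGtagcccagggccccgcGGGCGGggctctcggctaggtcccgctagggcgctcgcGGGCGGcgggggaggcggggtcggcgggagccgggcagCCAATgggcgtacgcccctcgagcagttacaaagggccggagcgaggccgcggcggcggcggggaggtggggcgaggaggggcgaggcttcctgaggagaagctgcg
Tgfbr2, chr9:116175314-116175613, minus strand: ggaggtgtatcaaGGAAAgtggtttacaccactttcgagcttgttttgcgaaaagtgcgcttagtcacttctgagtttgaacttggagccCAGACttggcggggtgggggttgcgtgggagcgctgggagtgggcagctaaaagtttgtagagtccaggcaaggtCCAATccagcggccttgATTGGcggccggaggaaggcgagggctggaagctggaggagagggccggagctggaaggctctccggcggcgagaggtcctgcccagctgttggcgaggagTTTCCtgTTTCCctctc
Smad3, chr9:63757945-63758244, minus strand: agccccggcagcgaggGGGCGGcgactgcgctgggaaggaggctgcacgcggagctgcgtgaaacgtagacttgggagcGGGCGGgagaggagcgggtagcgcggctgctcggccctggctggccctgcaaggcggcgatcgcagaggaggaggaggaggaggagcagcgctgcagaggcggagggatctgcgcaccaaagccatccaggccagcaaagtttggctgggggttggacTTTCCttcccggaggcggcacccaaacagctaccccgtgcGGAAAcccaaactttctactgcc

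The motifs searched on both strands were the SMAD box CAGAC, the AP-1 site TGANTCA, the NFAT core GGAAA, the GC box GGGCGG and the CCAAT box, and the marked matches do not overlap one another. The Tgfbr1 window shown held 2 GC boxes and 2 CCAAT boxes and 0 matches to the other 3 motifs. The Tgfbr2 window held 1 SMAD box, at position -160 from the start, 3 NFAT cores, of which 2 lie after the start, at 34 and 41, and 2 CCAAT boxes. The Smad3 window held 2 NFAT cores and 2 GC boxes. Such short motifs are common, since among 32851 promoters of the same length the SMAD box was found in 49.6%, the NFAT core in 61.3%, the CCAAT box in 37.4%, the GC box in 35.7% and the AP-1 site in 7.81%. GC content was 74.7% for Tgfbr1, 67.7% for Smad3 and 59.0% for Tgfbr2, against a median of 52.7% over all promoters. RefSeq also lists a second Tgfbr1 start, not shown, and the reads do not tell which start was used. Its window held 1 SMAD box, at position -203, and 1 CCAAT box, with a GC content of 52.0%. The Tgfb1 and Ski windows, also not shown, held 6 GC boxes each and no match to the other motifs.

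Tgfbr1 encodes the type I receptor kinase that phosphorylates SMAD2 and SMAD3 (ENSMUSG00000007613, chromosome 4, 47353222 to 47414931 as deposited). Its FPKM was 13.74, 15.48 and 13.26 in the control libraries, 46.86, 45.47 and 41.1 in the RANKL libraries and 28.34, 29.69 and 28.89 in the RANKL + UD libraries. The 3 groups did not overlap, with every RANKL library highest, every control library lowest and the RANKL + UD libraries between them. The log2 fold change between RANKL and control was 1.74 (SE 0.06, 95% interval 1.61 to 1.86, edgeR adjusted p = 5.6e-16), which ranked 346 among the 11995 genes from the largest rise down. Against RANKL, RANKL + UD gave -0.70 (SE 0.058, 95% interval -0.83 to -0.58, edgeR adjusted p = 6.04e-09), and with RANKL + UD the gene remained 2.05 times its control level.

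Tgfbr2 encodes the type II receptor kinase that binds the ligand first (ENSMUSG00000032440, chromosome 9, 115913361 to 116004428). Its FPKM was 32.46, 34.74 and 36.27 in control, 21.68, 21.72 and 20.75 with RANKL and 21.85, 21.24 and 21.54 with RANKL + UD. All control libraries lay above all the others, while the RANKL and RANKL + UD libraries overlapped. The log2 fold change between RANKL and control was -0.60 (SE 0.049, edgeR adjusted p = 9.65e-10), and between RANKL + UD and control it was -0.68 (SE 0.049, edgeR adjusted p = 1.69e-10). For RANKL + UD against RANKL it was -0.08 with a 95% interval of -0.18 to 0.03 (edgeR adjusted p = 0.251), and scaling by total counts instead of TMM gave 0.01, so no direction is given.

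**Figure D1:**
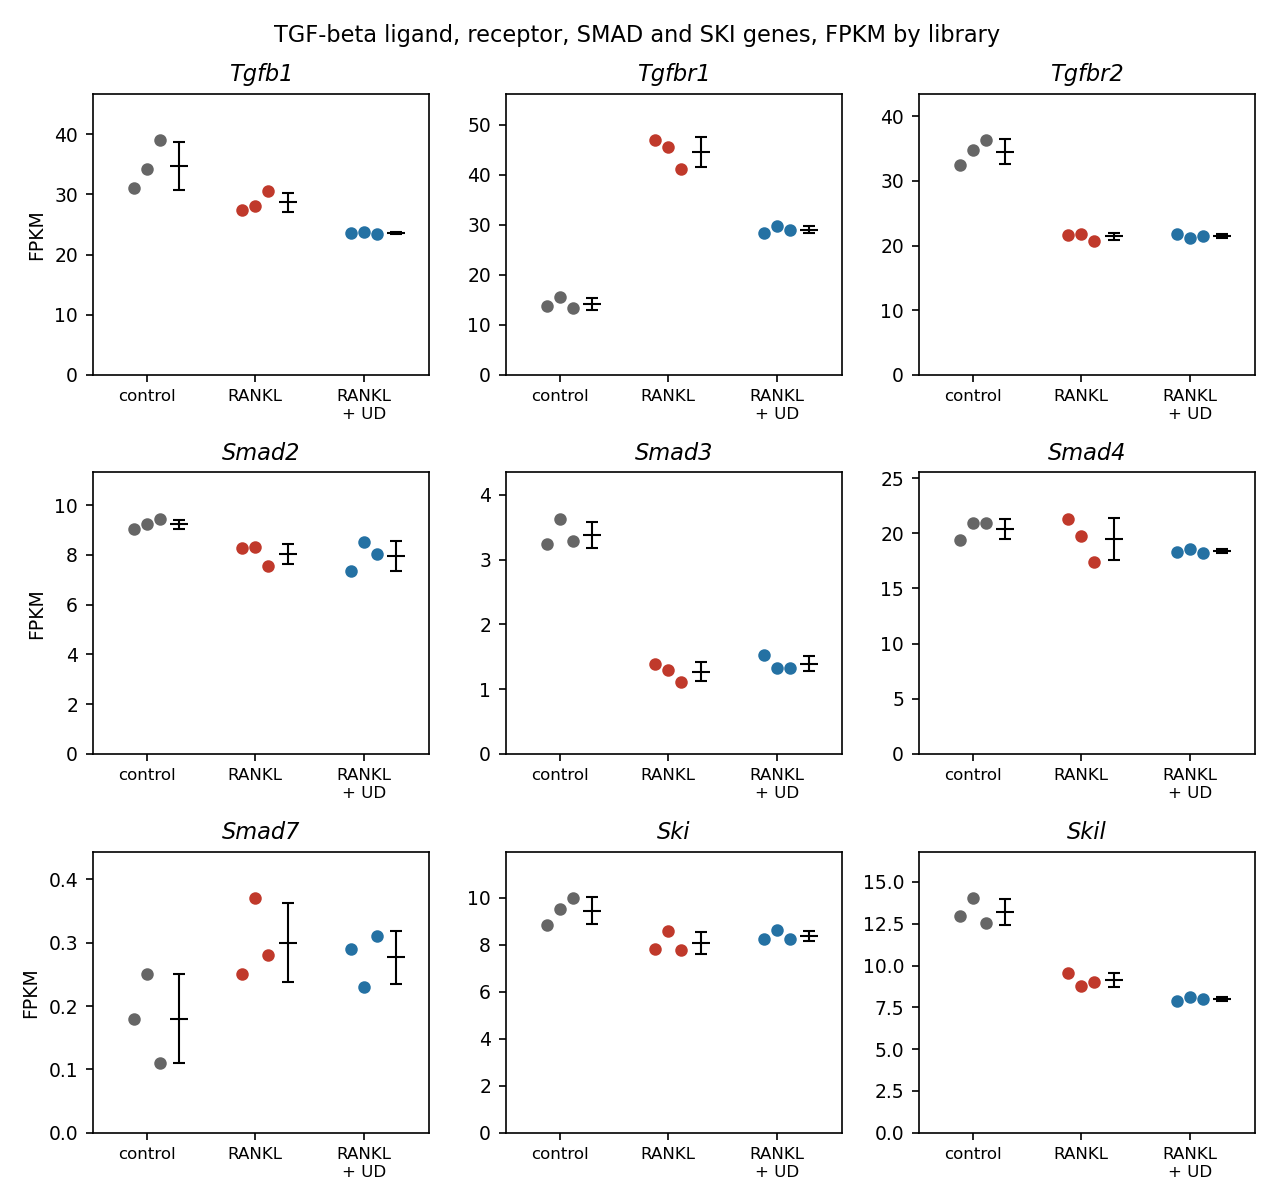
FPKM of the 9 genes (vertical axis, linear, from 0) in each control, RANKL and RANKL + UD library (points), with the mean and SD of 3 libraries beside them. Tgfbr1 is highest in the RANKL libraries (41.1 to 46.86) and between the other groups in RANKL + UD, whereas Tgfbr2, Smad3 and Skil are highest in control.

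Tgfb1, the ligand gene (ENSMUSG00000002603, chromosome 7, 25386427 to 25404502), had an FPKM of 31.06, 34.2 and 38.98 in control, 27.48, 28.14 and 30.49 with RANKL and 23.58, 23.73 and 23.49 with RANKL + UD. The groups stepped down without overlap, although the lowest control and the highest RANKL library were close. With UD added to RANKL, Tgfb1 fell by a further 0.37 on the log2 scale (SE 0.065, edgeR adjusted p = 0.00013), and between RANKL + UD and control it fell by 0.56 (SE 0.065, edgeR adjusted p = 2.94e-07). The fall between RANKL and control was smaller, at -0.19 (SE 0.065, edgeR adjusted p = 0.017). It was -0.10 (adjusted p = 0.122) without control replicate 3 and also missed the threshold without RANKL replicate 1 or 2, or when the fit held only the 6 libraries compared, with adjusted p from 0.06 to 0.0732 in these 3 fits.

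Among the receptor-activated SMADs, Smad3 fell far more than Smad2. Smad3 (ENSMUSG00000032402, chromosome 9, 63554049 to 63665276) had an FPKM of 3.24, 3.62 and 3.29 in control, 1.39, 1.3 and 1.11 with RANKL and 1.52, 1.32 and 1.32 with RANKL + UD. Every control library was more than 3 FPKM and every other library was under 2 FPKM, with the groups that received RANKL overlapping. The log2 fold change was -1.33 between RANKL and control (SE 0.127, 95% interval -1.59 to -1.06, edgeR adjusted p = 1.22e-08) and -1.28 between RANKL + UD and control (SE 0.127, edgeR adjusted p = 2.43e-08). The RANKL + UD value against RANKL was 0.05 with a 95% interval of -0.24 to 0.33 (edgeR adjusted p = 0.827), and its sign changed in the fits without RANKL replicate 3 or without RANKL + UD replicate 1.

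Smad2 (ENSMUSG00000024563, chromosome 18, 76374651 to 76444034), which carries the same signal, had an FPKM of 9.06, 9.23 and 9.43 in control, 8.26, 8.3 and 7.57 with RANKL and 7.34, 8.51 and 8.04 with RANKL + UD. The control libraries were above all the others, and the other groups overlapped. Only the difference between RANKL + UD and control passed the test, at -0.22 on the log2 scale (SE 0.062, edgeR adjusted p = 0.00568), and it missed the threshold without RANKL + UD replicate 1 (adjusted p = 0.0555). Between RANKL and control the log2 fold change was -0.11 (95% interval -0.24 to 0.01, edgeR adjusted p = 0.123). It was -0.20 (adjusted p = 0.00913) with total counts, which calls it lower.

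Smad4 encodes the partner shared by the TGF-beta and BMP arms (ENSMUSG00000024515, chromosome 18, 73772080 to 73836851). Its FPKM was 19.37, 20.97 and 20.91 in control, 21.27, 19.77 and 17.43 with RANKL and 18.31, 18.56 and 18.19 with RANKL + UD. The RANKL libraries spanned the values of both other groups, and the RANKL + UD libraries were below every control library, a difference of -0.15 on the log2 scale that did not pass the test (95% interval -0.29 to -0.01, edgeR adjusted p = 0.0612) and was called in 4 of 19 alternative fits. Between RANKL and control the log2 fold change was 0.02 (95% interval -0.12 to 0.16, edgeR adjusted p = 0.809) and it changed sign with total counts. Between RANKL + UD and RANKL it was -0.17 (SE 0.067, edgeR adjusted p = 0.0458), just past the threshold. That call held in 7 of 19 alternative fits (adjusted p from 0.00382 to 0.437). It was lost when control replicate 2, RANKL replicate 1 or 2 or any RANKL + UD library was left out, and the value was -0.10 without RANKL replicate 1.

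Smad7, an inhibitor that is itself a well known TGF-beta target (ENSMUSG00000025880, chromosome 18, 75500600 to 75529006), was close to the limit of detection. It had 14, 22 and 8 counts in control, 22, 32 and 24 with RANKL and 26, 17 and 24 with RANKL + UD, or mean FPKM of 0.18 ± 0.07, 0.3 ± 0.0624 and 0.277 ± 0.0416 (SD, n = 3 each). The groups overlapped or touched, and the gene did not enter the test. Without the filter on low values its log2 fold change between RANKL and control was 0.79 (edgeR adjusted p = 0.165), so a difference was not detectable at this depth.

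The corepressor genes differed from each other. Skil (ENSMUSG00000027660, chromosome 3, 31149207 to 31176726) had an FPKM of 12.96, 14.02 and 12.55 in control, 9.57, 8.76 and 8.99 with RANKL and 7.9, 8.14 and 8.0 with RANKL + UD. The groups stepped down without overlap. Skil fell by 0.45 on the log2 scale between RANKL and control (SE 0.055, edgeR adjusted p = 6.01e-07) and by a further 0.27 between RANKL + UD and RANKL (SE 0.057, edgeR adjusted p = 0.000656).

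Ski (ENSMUSG00000029050, chromosome 4, 155238532 to 155307049) had an FPKM of 8.82, 9.53 and 9.97 in control, 7.8, 8.6 and 7.78 with RANKL and 8.26, 8.63 and 8.24 with RANKL + UD. The control libraries were above the others, and the other groups overlapped. The log2 fold change was -0.14 between RANKL and control (95% interval -0.29 to 0.0, edgeR adjusted p = 0.0896), which became a call in 4 of 19 alternative fits (-0.23, adjusted p = 0.00845 with total counts, in both limma fits and without control replicate 1). It was -0.03 between RANKL + UD and RANKL (95% interval -0.18 to 0.12, edgeR adjusted p = 0.775). Between RANKL + UD and control it was -0.17 (SE 0.07, edgeR adjusted p = 0.0436), a call that held in 8 of 19 alternative fits (adjusted p from 0.0198 to 0.156). That call was lost without control replicate 2 or 3 or any of the RANKL + UD libraries.

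Counted together, RANKL against control gave 1 gene higher and 4 lower among the 8 tested. Of all genes tested, 27.3% were called higher and 30.2% lower, or 57.6% in either direction, against 62.5% of the 8. The comparison of RANKL + UD with RANKL gave 4 lower (Tgfb1, Tgfbr1, Smad4 and Skil), where 20.2% of all genes were called lower and 38.8% in either direction. It gave 0 higher, where 18.6% of all genes were, and 0 were higher at an unadjusted p under 0.05 by edgeR, DESeq2 or limma. Against control, RANKL + UD gave 1 higher and 6 lower, with 26.7% of all genes called higher, 27.3% lower and 54.0% in either direction.

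A stricter rule asks for a fold change over 1.5 and an unadjusted p under 0.05. With RANKL, it took Tgfbr1 among the higher genes (11.1% of all genes) and Tgfbr2 and Smad3 among the lower (14.4%, and 25.5% in either direction). Between the groups that received RANKL, it took Tgfbr1 alone, lower with UD (5.99% of all genes lower, 4.82% higher, 10.8% in either direction). For RANKL + UD against control it took Tgfbr1 (9.59% of all genes higher) and, lower, Tgfbr2, Smad3 and Skil (13.1%, and 22.7% in either direction). The FPKM values of the groups did not overlap for 7, 3 and 8 of the 8 genes in the 3 comparisons, and for 61.7%, 51.7% and 59.9% of all genes. The median log2 fold change of the 8 genes was -0.16, -0.14 and -0.39, against -0.03, 0.0 and -0.0 over all genes. The 3 comparisons share libraries and are not independent.

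**Figure D2:**
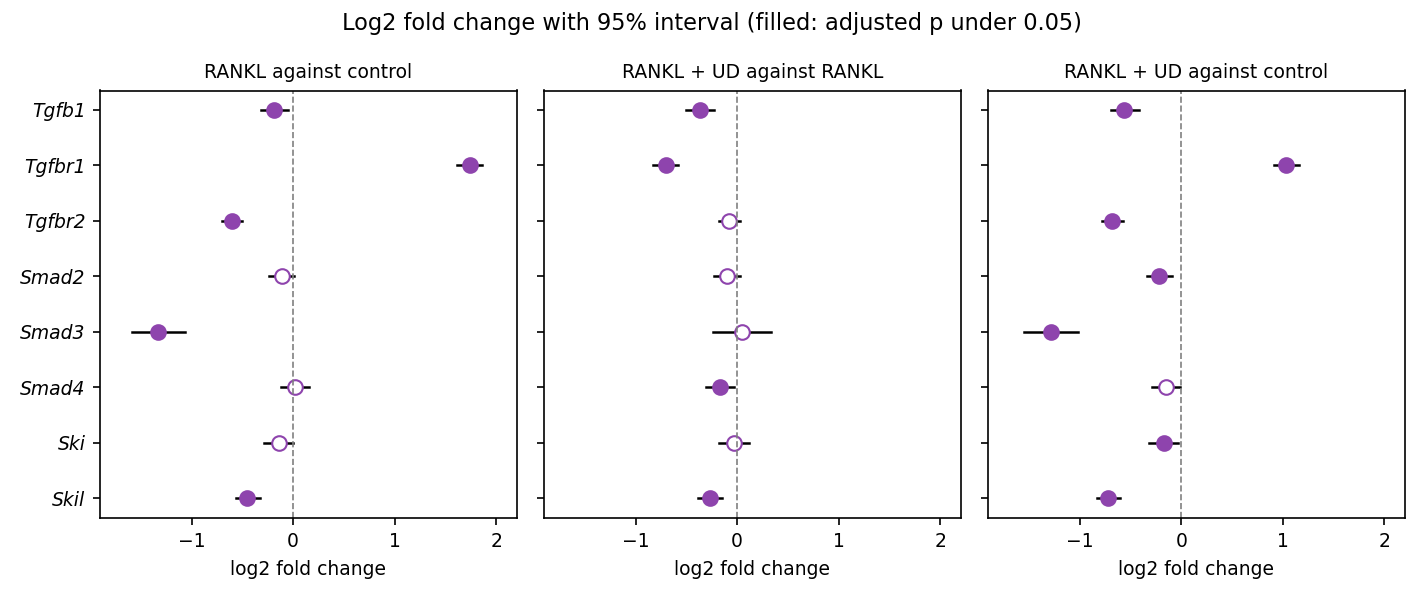
Log2 fold change (horizontal axis) of the 8 tested genes in each comparison, with the 95% interval derived from edgeR's F statistic as a line and a filled point at an adjusted p under 0.05. Tgfbr1 lies far to the right of 0 against control (1.74 with RANKL, 1.03 with RANKL + UD), Smad3 far to the left (-1.33 and -1.28), and Tgfbr1 has the largest fall between RANKL + UD and RANKL (-0.70).

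The order of the levels changed between groups. In control, Tgfb1 (34.7 ± 3.99 FPKM, SD, n = 3) and Tgfbr2 (34.5 ± 1.92) were highest and did not differ beyond their spread. Below them stood Smad4 (20.4 ± 0.907), then Tgfbr1 (14.2 ± 1.17) and Skil (13.2 ± 0.759), which overlapped. Ski and Smad2 followed, overlapping each other, then Smad3 and Smad7. With RANKL, Tgfbr1 (44.5 ± 3.01) was first, above Tgfb1 (28.7 ± 1.58), and Tgfbr2 (21.4 ± 0.549) and Smad4 (19.5 ± 1.94) overlapped below them. With RANKL + UD the top 4 were Tgfbr1 (29.0 ± 0.679), Tgfb1 (23.6 ± 0.121), Tgfbr2 (21.5 ± 0.305) and Smad4 (18.4 ± 0.189), each separate from the next, and Skil now stood under Ski.

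Ratios within a library do not depend on how libraries are scaled. The ratio of Tgfbr2 to Tgfbr1, per exonic base, was 2.36, 2.24 and 2.74 in control, 0.463, 0.478 and 0.505 with RANKL and 0.771, 0.715 and 0.746 with RANKL + UD. Per annotated exonic base, Tgfbr2 thus had more reads than Tgfbr1 in every control library and fewer in every other library. The transcript forms in use were not resolved, so this order need not hold for numbers of transcripts. The ratio of Smad3 to Smad2 averaged 0.366 ± 0.0228 for control, 0.157 ± 0.011 for RANKL and 0.175 ± 0.0283 for RANKL + UD (SD over 3 libraries). The ratio of Skil to Ski was 1.4 ± 0.122, 1.13 ± 0.106 and 0.957 ± 0.0138 in the same order (SD, n = 3 each). In an exact two-sided permutation test, 8 of the 9 comparisons of these ratios had p = 0.1 (0.113 after Benjamini-Hochberg adjustment over the 9), the smallest p that 3 against 3 libraries allow, and none can pass 0.05. For Smad3 to Smad2 between RANKL + UD and RANKL the libraries overlapped (exact permutation p = 0.5).

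**Figure D3:**
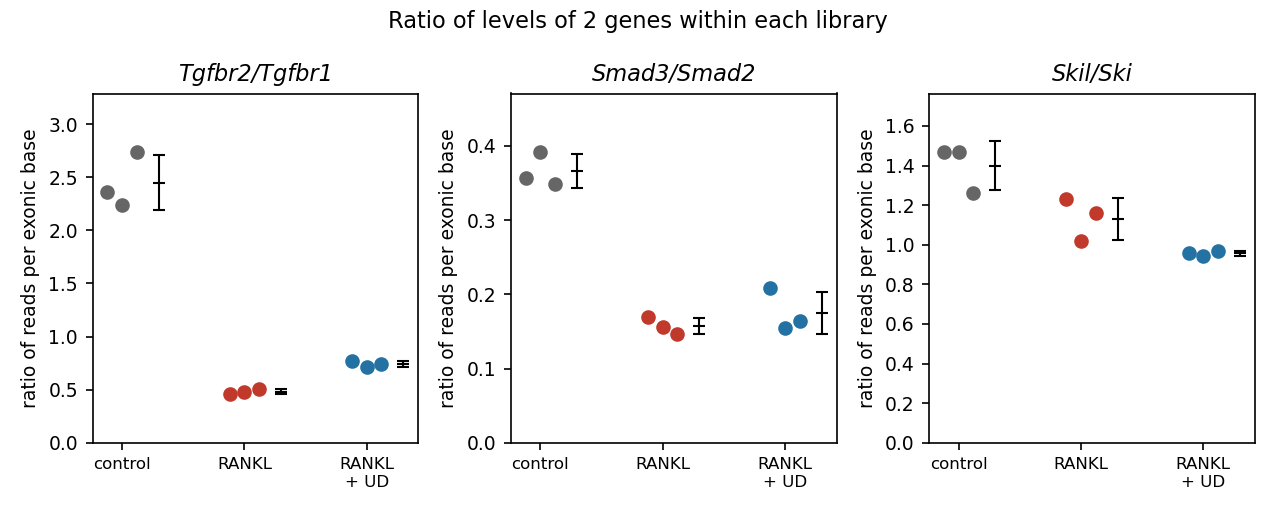
Ratio of the reads per exonic base of 2 genes (vertical axis, linear, from 0) in each library (points), with the mean and SD of 3 libraries beside them, for Tgfbr2 to Tgfbr1, Smad3 to Smad2 and Skil to Ski. The receptor ratio drops from 2.24 or more in control to 0.505 or less with RANKL, with RANKL + UD between 0.715 and 0.771.

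For each tested gene, the genes with the most similar pattern over the 9 libraries were found by Pearson's r of log2(FPKM + 1). As these r values are the highest of all genes tested and mostly reflect the 3 group means, they are a description. For Tgfbr1 they were Spred1 and Mdfic (r = 0.998 each) and Pheta1 (r = 0.997). For Tgfbr2 they were Nrp1 (r = 0.999), P2ry12 and Nod2 (r = 0.997 each). Mean FPKM of P2ry12 was 2.01 in control and 0.0 with RANKL, and that of Nod2 was 2.07 and 0.62. A high r thus describes the shape of a pattern and not the size of a change. For Smad3 they were Mfsd6 (r = 0.997), Ccnl2 (r = 0.996) and Arhgap26 (r = 0.995), and for Skil they were Il13ra2 (r = 0.991), Cdk19 and Nek7 (r = 0.99 each). P2ry12, Nod2 and Arhgap26 had means under 1 FPKM in both groups that received RANKL, as did Il13ra2 with RANKL + UD. For Tgfb1 they were Actb (r = 0.992), Sirpa (r = 0.98) and Sh2b3 (r = 0.979). Likeness was lowest for the genes with the smallest changes, with leading genes Cltc for Smad2 (r = 0.959), Dennd4c for Smad4 (r = 0.931) and Med12 for Ski (r = 0.979).

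The rest of the pathway was described from 6 lists of 77 other genes, of which 44 were tested. Between RANKL and control 10 were higher and 16 lower, or 59.1% called. For RANKL + UD against RANKL, 5 were higher and 12 lower, or 38.6% called, and between RANKL + UD and control 12 were higher and 17 lower, or 65.9% called. The corresponding shares of all genes are 57.6%, 38.8% and 54.0%. The medians of the 44 log2 fold changes were -0.04, -0.05 and -0.08. Id3, Pmepa1, Usp11 and Zfyve9 had a group mean under 1 FPKM and entered the test through the groups where they were higher. Against control all 4 were called, which the filter favours, so those calls are named beside the counts that hold them and no p is given for them.

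Of 14 genes listed for ligands and their activation, 3 were tested. With RANKL 1 was higher and 1 lower (66.7% called against 57.6% of all genes). Between RANKL + UD and RANKL 0 were higher and 2 lower (66.7% against 38.8%). Itgav, the integrin alpha V chain that takes part in releasing active TGF-beta, followed the same order as Tgfbr1. Mean FPKM was 13.7 ± 0.343 for control, 62.3 ± 4.35 for RANKL and 38.4 ± 0.583 for RANKL + UD (SD over 3 libraries), with log2 fold changes of 2.27 (SE 0.053, edgeR adjusted p = 8.53e-19) and -0.78 (SE 0.051, edgeR adjusted p = 2.02e-10). Nrros, which anchors latent TGF-beta on macrophages and microglia, fell by 0.63 between RANKL and control (edgeR adjusted p = 2.94e-08). Furin, the protease that cleaves the TGF-beta precursor, fell by 0.39 between RANKL + UD and RANKL (edgeR adjusted p = 0.0109), a call lost without RANKL replicate 2 or RANKL + UD replicate 1 and in both limma fits. All the rest of the 14 stayed under the level filter and were not tested. Among them were the ligand genes Tgfb2 and Tgfb3, with group means of at most 0.06 and 0.177 FPKM, and most genes listed for activation.

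Of 7 tested receptors and co-receptors, 3 were lower with RANKL, or 42.9% called against 57.6% of all genes. They were Acvrl1, Acvr1b and Zfyve9 (SARA, the adaptor that presents SMAD2 and SMAD3 to the receptor), and Zfyve9 passed the filter through control alone, where its mean FPKM was 1.71, against 0.73 for RANKL and 0.757 for RANKL + UD. The call of Acvr1b (-0.27, edgeR adjusted p = 0.0414) was lost without control replicate 1 or 2 or any RANKL library. It was also lost with DESeq2, with RLE size factors and with no filter on low values. Acvrl1 (ALK1), another type I receptor, was the only one called between RANKL + UD and RANKL, where its FPKM went from 3.18 ± 0.275 to 1.7 ± 0.246 (SD, n = 3 each) and its log2 fold change was -0.99 (SE 0.127, edgeR adjusted p = 2.97e-06). In the BMP arm, 5 genes were tested. With RANKL 1 was higher and 3 lower (80.0% called against 57.6% of all genes), and with RANKL + UD against RANKL 1 was higher and 1 lower (40.0% against 38.8%). The type I receptor genes moved oppositely with RANKL, Acvr1 rising by 0.31 (edgeR adjusted p = 0.00363) while Bmpr1a fell by 0.28 (edgeR adjusted p = 0.000501). Bmpr2, the type II receptor gene, was lower with RANKL (-0.17, edgeR adjusted p = 0.0233) and lower again with UD added (-0.22, edgeR adjusted p = 0.00956). The first of these calls was lost without RANKL replicate 2 or 3 (-0.10 without the latter), and when the fit held only the 6 libraries compared. The second was lost without RANKL replicate 1 (-0.14) or RANKL + UD replicate 3, with total counts and with limma. Smad5, a BMP signal carrier, was higher with RANKL + UD than with RANKL (0.37, edgeR adjusted p = 0.000376). The call of its fall with RANKL (-0.19, edgeR adjusted p = 0.0288) was lost without control replicate 2, RANKL replicate 2 or RANKL replicate 3 (-0.11 without the last). It was also lost with DESeq2 and when the fit held only the 6 libraries compared.

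Of 11 tested ubiquitin ligases, deubiquitinases and phosphatases that act on SMADs or receptors, 5 were higher, Usp11 included, and 1 lower with RANKL, or 54.5% called against 57.6% of all genes. Usp11, a deubiquitinase, had a mean FPKM of 0.487 for control, 1.57 for RANKL and 2.64 for RANKL + UD, and passed the filter through the groups that received RANKL. Between those groups its log2 fold change was 0.67 (edgeR adjusted p = 0.000877). Smurf1, a ubiquitin ligase, rose by 0.73 with RANKL (edgeR adjusted p = 5.89e-07) and Wwp1, another ligase, fell by 0.54 (edgeR adjusted p = 2.65e-07). Of 9 tested nuclear partners, 3 were called with RANKL, all lower (33.3% called against 57.6% of all genes). Between RANKL + UD and RANKL 1 was higher and 3 lower (44.4% against 38.8%), and the largest fall was that of Tgif1, a SMAD corepressor. Mean FPKM was 12.5 ± 0.227 for control, 12.1 ± 0.563 for RANKL and 6.9 ± 0.21 for RANKL + UD (SD over 3 libraries), and the log2 fold change against RANKL was -0.89 (SE 0.063, edgeR adjusted p = 7.82e-10). Crebbp, a coactivator, and Zeb2, a SMAD-binding repressor, fell by 0.51 (edgeR adjusted p = 5.7e-06) and 0.49 (edgeR adjusted p = 1.35e-06) in the same comparison.

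The 10 tested genes from a list of TGF-beta targets moved both ways, with 3 higher and 5 lower between RANKL and control (80.0% called, where 57.6% of all genes were) and 2 higher and 3 lower between RANKL + UD and RANKL (5 of 10, where 38.8% of all genes were). The first counts include Id3 and Pmepa1, which passed the filter through one side. Bhlhe40 had 15.0 ± 1.43 FPKM in the control libraries, 60.9 ± 2.08 under RANKL and 39.0 ± 0.765 under RANKL + UD (SD over 3 libraries), with log2 fold changes of 2.10 (edgeR adjusted p = 1.62e-17) and -0.73 (edgeR adjusted p = 2.22e-09). Pmepa1, a feedback inhibitor of SMAD signalling, had 6, 3 and 6 counts in control and 94, 124 and 114 with RANKL, so that it passed the filter only through the groups that received RANKL. Dab2, an endocytic adaptor, fell from 55.8 ± 1.32 to 8.92 ± 0.602 FPKM with RANKL (SD over 3 libraries), and its log2 fold change was -2.56 (edgeR adjusted p = 4.31e-19). Klf10, an early TGF-beta response gene, averaged 15.4 ± 0.364 FPKM for control, 6.49 ± 1.08 for RANKL and 15.5 ± 0.208 for RANKL + UD (SD over 3 libraries). It thus fell by 1.16 with RANKL (edgeR adjusted p = 2.46e-10) and was higher by 1.17 with RANKL + UD than with RANKL (edgeR adjusted p = 1.57e-09), which was the largest rise of a list gene in that comparison.

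**Figure D4:**
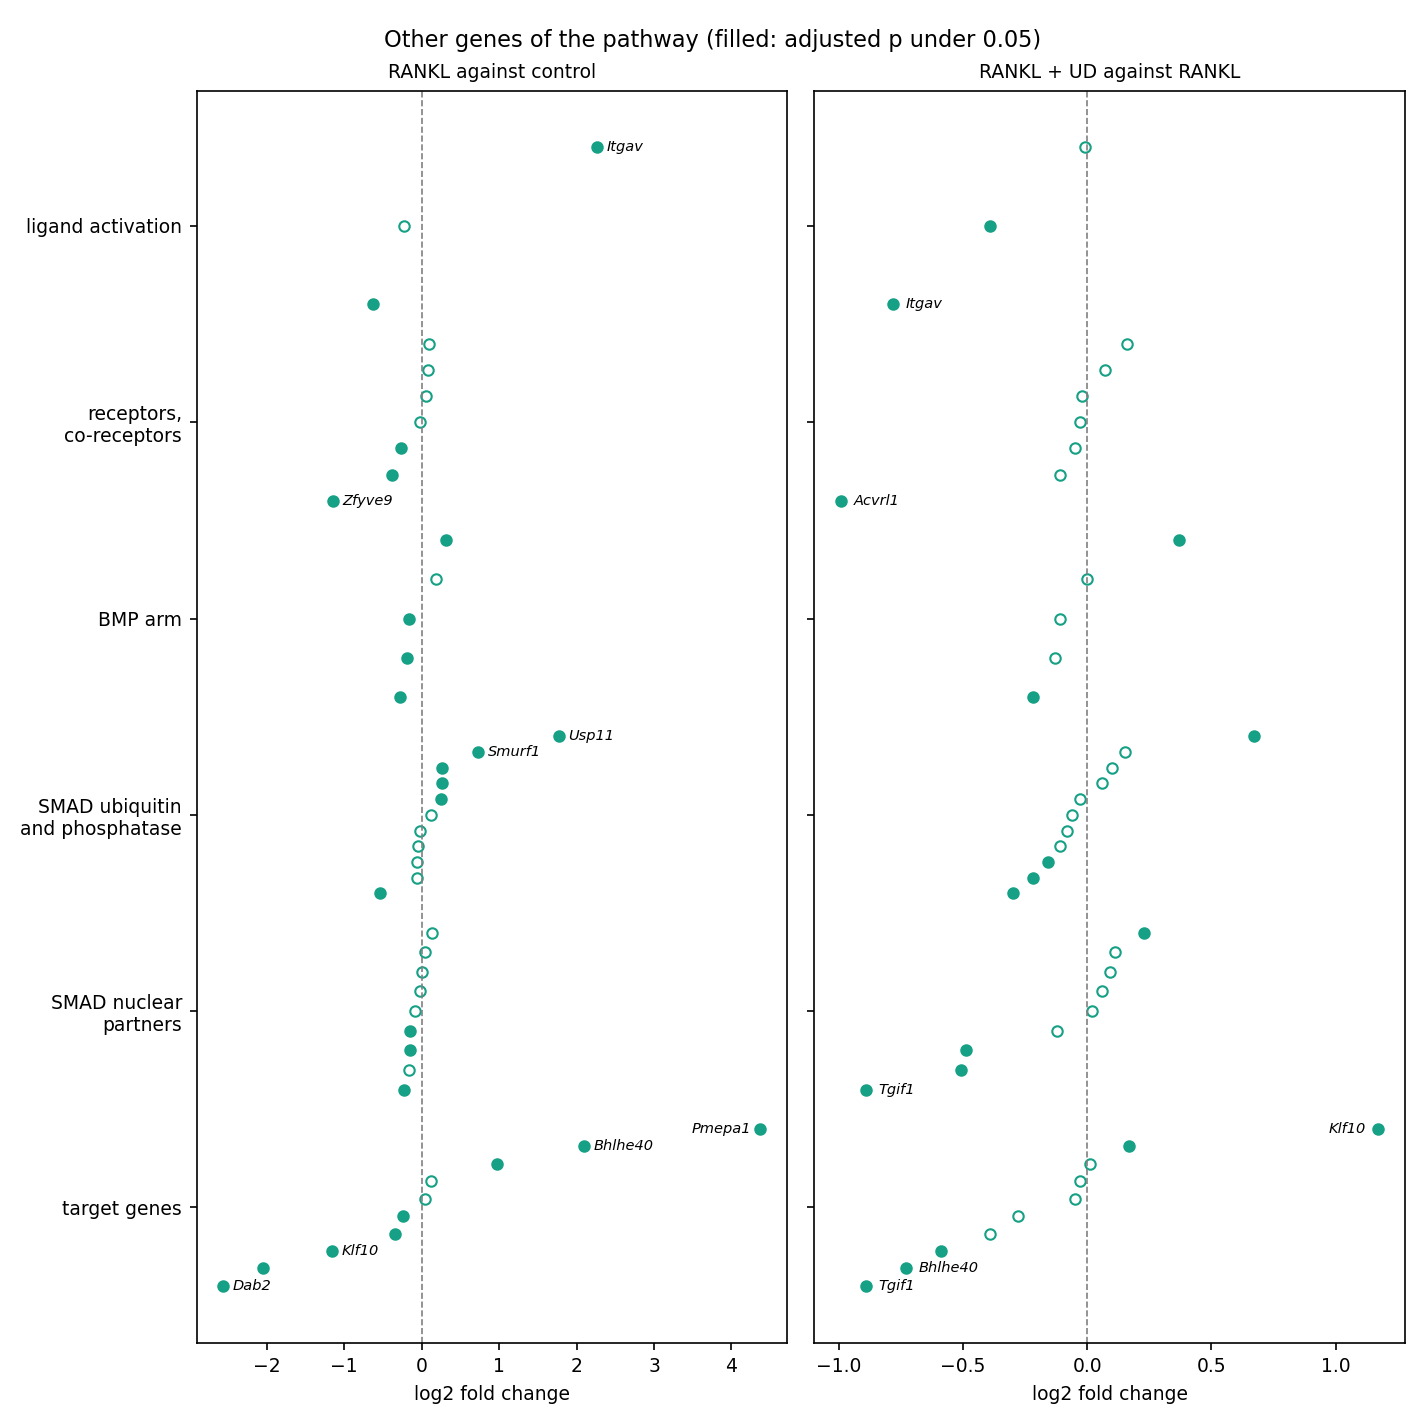
Log2 fold change (horizontal axis) of the tested genes of each list, sorted within the list, between RANKL and control (left) and between RANKL + UD and RANKL (right, with a narrower axis), filled at an edgeR adjusted p under 0.05. Pmepa1, Itgav and Bhlhe40 lie furthest right and Dab2 furthest left with RANKL, and with RANKL + UD Klf10 (1.17) lies furthest right and Acvrl1 (-0.99) furthest left, followed by Tgif1 (-0.89, shown in both lists that hold it).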

How the data were processed

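Poly(A)-selected RNA from 9 libraries of RAW264.7 cells was sequenced on an Illumina platform. The authors deposited, for 56691 genes, raw read counts and FPKM values, which they made from these counts, the exonic length and the library total. Recomputing gave the deposited FPKM in 100% of values (within 0.005), and no gene name was blank. The table calls the RANKL libraries by the study's name for the model group. The submitters' processing notes name mm10, but the deposited coordinates of the 9 genes differ from GRCm38 and are given as deposited. The start regions printed above are on GRCm38.p6. Only the start of Tgfbr1, 47353222, is the same in both, so the positions of the other windows cannot be set against these gene spans. The aligner, counting tool and use of strand are not given in the sources used here. Smad4 overlaps Gm50126 on the opposite strand, which had at most 2 counts.

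Counts were scaled by TMM and tested in edgeR 4.0.16 (R 4.3.3), fitting the 9 libraries jointly, with p-values adjusted by Benjamini-Hochberg, which fits the counts in place of a test on FPKM. The study names DESeq2, which was an alternative (DESeq2 1.42.0). The other alternatives were RLE size factors, total counts, upper-quartile scaling, no filter, filterByExpr, limma 3.58.1 on log2(FPKM + 1) or log2(FPKM + 0.1), only the 6 libraries compared, the replicate number as a block and each library left out in turn. Ratios used an exact permutation test (scipy 1.17.1). Scripts were tested on simulated data. Same-group libraries differed by more than sampling noise (chi-square per degree of freedom 2.9 to 8.89), so none were merged.

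Members and lists were chosen with earlier results of these data known. Named list genes are up to 3 per list and comparison with the largest change among those called, in RANKL against control or RANKL + UD against RANKL, and any over 100 FPKM. The 3 genes most correlated with each member over 9 libraries were also named.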

Additional observations from a re-analysis of the deposited data

How the results depend on the processing

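Over 19 alternatives, Tgfbr1 kept its call and direction in all 3 comparisons (log2 fold change 1.59 to 1.8, -0.76 to -0.6 and 0.98 to 1.09), as did Skil in all 3, Tgfbr2 and Smad3 against control, and Tgfb1 in both comparisons of RANKL + UD. Signs turned only where no call was made. Between RANKL + UD and RANKL, Tgfbr2 was 0.01 with total counts and with limma at either pseudocount, Ski was 0.06 with total counts, 0.05 with limma on log2(FPKM + 1), 0.06 on log2(FPKM + 0.1) and 0.02 without RANKL replicate 2 (-0.06 to 0.02 with a library left out), and Smad3 was -0.04 without RANKL replicate 3 and -0.03 without RANKL + UD replicate 1 (-0.04 to 0.12). Between RANKL and control, Smad4 was -0.07 with total counts and with limma at either pseudocount, -0.02 without control replicate 1 and -0.05 without RANKL replicate 1 (-0.05 to 0.1). Total counts leave out the TMM factors, which differ between RANKL and the other groups. Of the genes called between RANKL + UD and RANKL, 48.0% were higher with TMM and 66.2% with total counts (3348 higher and 1709 lower). For RANKL against control these shares were 47.5% and 36.9%. Limma called 1539 genes lower between RANKL + UD and RANKL on log2(FPKM + 1) and 1488 on log2(FPKM + 0.1), against 2418 by edgeR. Pathway list genes higher with RANKL numbered 19 with no filter and 16 with filterByExpr, which test more genes, against 10. Those higher between RANKL + UD and RANKL numbered 9 with total counts against 5, and 3 to 5 with a library left out, the lowest without RANKL replicate 2. The log2 difference of the Smad3 to Smad2 ratio was -0.77 (RANKL against control) and -0.68 (RANKL + UD against control) on log2(FPKM + 1), an alternative chosen after seeing the data, against -1.22 and -1.06, since the pseudocount shrinks low values. With a library left out, the number of the 8 genes called lower was 3 to 5, 3 to 4 and 4 to 7 in the 3 comparisons.

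Pairing of the libraries by replicate number was at most weak. The deviations of same-numbered libraries correlated at -0.032 to 0.174, above 0.1 in 3 of 9 pairs. In 6 of the 9 pairs the same-numbered library correlated best, so a small shared effect is not excluded. With the replicate number as a block, 4 of the 8 genes were called lower between RANKL + UD and RANKL, as without it. Of all genes, 2347 were called higher and 2518 lower with the block, against 2233 and 2418 without it. At this depth Smad7, with 8 to 32 counts a library, and Tgfb2 and Tgfb3 cannot be compared.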

Other observations

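Tgfbi, a secreted matrix protein named for its induction by TGF-beta, belongs to the target list but did not enter the test, and it was chosen after its values were seen. It had 29, 63 and 50 counts in the control libraries and 0 counts in all 6 libraries that received RANKL or RANKL + UD. With the TMM factors applied, its mean control level was 16.1 times a floor of 3 counts per library with RANKL and 14.7 times that floor with RANKL + UD. These values rest on the control mean, and control replicate 1, with 29 counts, would give smaller ones.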
